A study of Mus musculus with 8 samples.

Results

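The genes described here are 40 lysosomal genes: 9 proteases, 14 hydrolases of glycans and glycolipids, 4 genes of lipid hydrolysis, sterol export and sphingolipid activation, 5 membrane proteins, 6 genes of the proton pump and 2 transcription factors. They were chosen by symbol. Each was read on the probe set that GEO's array annotation assigns to it alone, taking the brightest over all arrays where there was more than 1, and all 40 were found among the 19938 genes tested. RNA came from livers of male littermates 8 weeks old, hybridised to Affymetrix arrays. In the 4 deleted samples, floxed Hmgb1 had been removed by Cre recombinase expressed from the albumin promoter. That promoter is active in hepatocytes; Hmgb1 was not measured by cell type here. The 4 control samples carried the floxed Hmgb1 alleles, and their titles name no Cre, so an effect of Cre itself and of losing Hmgb1 cannot be told apart. The study addressed whether HMGB1, an abundant DNA-binding protein of chromatin, is needed for autophagy, the pathway that delivers its cargo to lysosomes.

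The labels give the background as C57Bl/6, backcrossed 5 times, in 1 field and as Balb/c in another, and the tissue as whole liver and as stellate cells. Of the markers measured, 10 of 10 hepatocyte genes and 10 of 11 stellate cell genes had a mean above the median probe set. So did 12 of 12 sinusoidal endothelial, 11 of 12 macrophage, 3 of 6 cholangiocyte and 3 of 11 leukocyte genes. Of all 19938 genes tested 11610 did, and these counts alone do not settle the tissue label. The labels do not tie arrays to single animals, and the p-values here cover only the spread seen among the 8 arrays. Hmgb1 itself fell by 0.91 on the log2 scale (SE 0.14, limma adjusted p = 0.0216), from 5.35, 5.42, 5.45 and 5.78 on controls 1 to 4 to 4.91, 4.20, 4.53 and 4.74 on deleted 1 to 4, on a dim probe set. The call was lost in 5 of 16 alternatives (adjusted p of up to 0.0797). Floxed control 1 stood apart from the other arrays, at 26.6 on the first principal component against −11.7 to 11.4 for the other 7. Deleted 4 held the lowest value of its group for 36.4% of all genes (control 1 for 35.7%), and its brightest probe set read 13.58 against 14.23 to 14.46 on the other arrays. In bulk tissue, fewer cells of a type and less RNA per cell cannot be told apart.

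Lysosomes are acidic organelles that break down material brought by endocytosis and autophagy. A V-type ATPase pumps protons into them, heavily glycosylated proteins such as LAMP1 and LAMP2 line their membrane, and soluble hydrolases digest proteins, glycans and lipids. TFEB and TFE3 are transcription factors that enter the nucleus on starvation or lysosomal stress and bind E-box elements in the promoters of many lysosomal and autophagy genes. Loss of single hydrolases causes lysosomal storage diseases, in which the liver is often enlarged.

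The E-box core CACGTG, which these factors recognise, was searched in the RefSeq promoter windows (GRCm38.p6) from 250 bases before to 50 bases after each start. It reads the same on both strands. Entries were found for 35 of the 40 genes, and not for Atp6v1b2, Atp6v1h, Ctsb, Ctsh and Npc1. CACGTG was present in 15 of the 35 (42.9%), against 9.5% of the 15614 tested genes with an entry and 8.09% of all 27025 genes in the table. Of the other lysosomal genes described further on, 79 had an entry and 17 of these held CACGTG (21.5%). The longer TCACGTG, which contains it, was present on either strand in 14 of the 35 (40%, against 5.35% of tested genes), and TCACGTGA in 7 (20%, against 1.52%). The longest form searched, TCACGTGA with G before it and C after it, was present in 0 of the 35. It was present in 0.525% of tested genes and in 3 of the 79 other lysosomal genes (3.8%). A form this rare among tested genes can be absent from 35 genes by chance. The median GC content of the windows was 56.3% for the lysosomal genes and 57.5% for tested genes. A match is a description of the letters and not evidence of binding.

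The sequences below are the 80 bases just before the annotated start, 5′ to 3′, with CACGTG in capitals. Lamp1 and Mcoln1 are shown for their repeated matches, and Sgsh, Naglu and Idua because they are among the genes with the largest positive differences described further on. They lie at chr8:13159081-13159160 (+) for Lamp1, chr8:3500439-3500518 (+) for Mcoln1, chr11:119355511-119355590 (−) for Sgsh, chr11:101070014-101070093 (+) for Naglu and chr5:108660251-108660330 (+) for Idua, in GRCm38.p6.
Lamp1: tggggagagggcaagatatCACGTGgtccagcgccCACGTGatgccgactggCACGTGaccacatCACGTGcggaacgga
Mcoln1: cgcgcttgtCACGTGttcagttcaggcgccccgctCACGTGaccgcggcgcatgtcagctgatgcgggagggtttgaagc
Sgsh: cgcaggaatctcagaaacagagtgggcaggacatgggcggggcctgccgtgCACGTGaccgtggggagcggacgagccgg
Naglu: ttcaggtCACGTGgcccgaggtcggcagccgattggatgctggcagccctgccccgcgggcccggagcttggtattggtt
Idua: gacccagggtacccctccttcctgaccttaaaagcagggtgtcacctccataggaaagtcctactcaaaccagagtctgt

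Lamp1 held 4 matches within this stretch, the most of any of the 35 genes, and Mcoln1 held 2. The stretch of Idua, like its whole window, held none. Arsb, which had a larger positive difference than Sgsh and Naglu, is not shown, and its window held no match either. Of the 22 matches in all, 16 lay no more than 100 bases upstream of the start or downstream of it, in 11 genes.

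**Figure D1:**
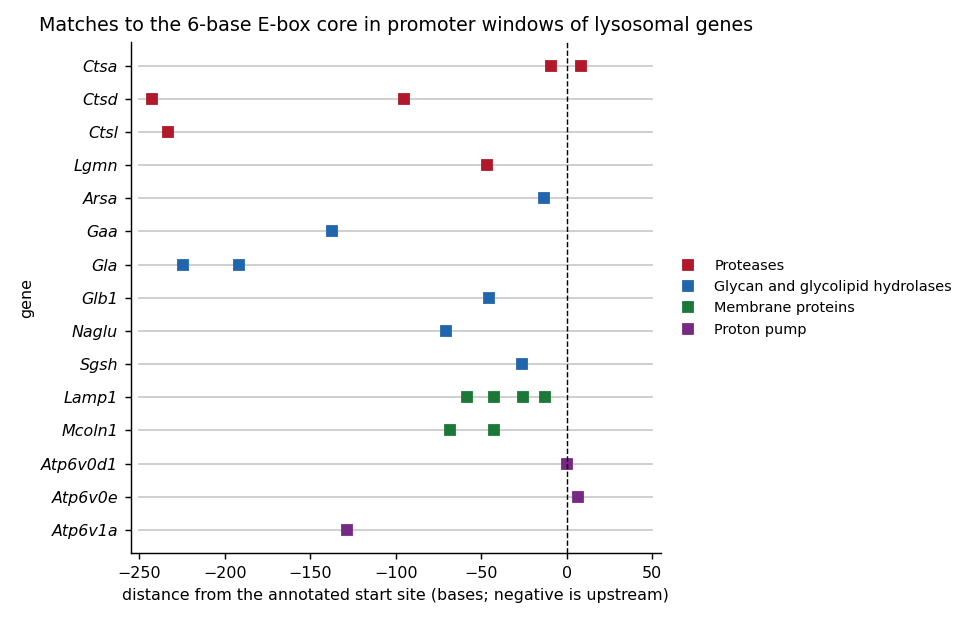
Positions of matches to the 6-base E-box core in the promoter windows of the 15 lysosomal genes that hold it, in bases from the annotated start (negative is upstream); each square is 1 match, coloured by the gene's role. Lamp1 has 4 matches, and 16 of the 22 matches lie from 100 bases upstream onwards. All windows of a gene share 1 line.

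The comparison of deleted with control livers found 1 of the 40 lysosomal genes past the threshold of an adjusted p of 0.05, Idua, which was higher. Among all genes tested 0.692% passed, 0.296% as higher and 0.396% as lower. Of the 40 genes 19 were higher and 21 lower in the deleted livers, and 49.0% of all genes tested were higher. The majority was not stable. It was 22 of 40 higher after quantile normalization applied again (56.1% of all genes) and 23 of 40 with arrays centred on their medians (58.4%), a step that added 0.02 to the log2 fold change of every gene. It was also 22 without deleted 4 (56.6%) or without control 2 (49.5%) and 21 without control 3 (46.7%). The lower majority grew without control 1, where 13 were higher (54.6% of all genes), and without deleted 2, where 16 were higher (49.4%). The median log2 fold change (deleted minus control) was −0.0088 for the lysosomal genes and 0.0 for all genes. All 40 of the 95% intervals lay within a 1.5-fold change in either direction, as did 97.2% of those of all genes.

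An unadjusted p under 0.05 was found for 12 of the 40 genes, 6 higher and 6 lower, against 9.46% of all genes (4.93% higher, 4.53% lower). That count was 7 with arrays centred on their medians (8.54% of all genes), without deleted 3 (7.78%) or without control 2 (7.74%), and 6 without control 3 (7.94%). It was 14 after quantile normalization again (12.5%) and with array weights (15.6%). Of the 40 genes 39 had a mean above the median probe set, as did 11610 of all 19938 genes. With the genes below it left out, the count was 10 (13.0% of the genes kept). The groups did not overlap for 6 of the 40, against 5.57% of all genes. They were Idua, Sgsh, Atp6v1b2 and Man2b1 (higher, as were 3.28% of all genes without overlap) and Ctsl and Ctsa (lower, 2.30%). The count was 10 after quantile normalization again (8.50% of all genes) and 3 with arrays centred on their medians (4.87%). With dim genes left out it stayed at 6, against 8.11% of the genes kept. With fewer arrays groups overlap less often by construction, and the count was 10 without control 1 (13.3% of all genes) and 10 without deleted 1 (10.5%).

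**Figure D2:**
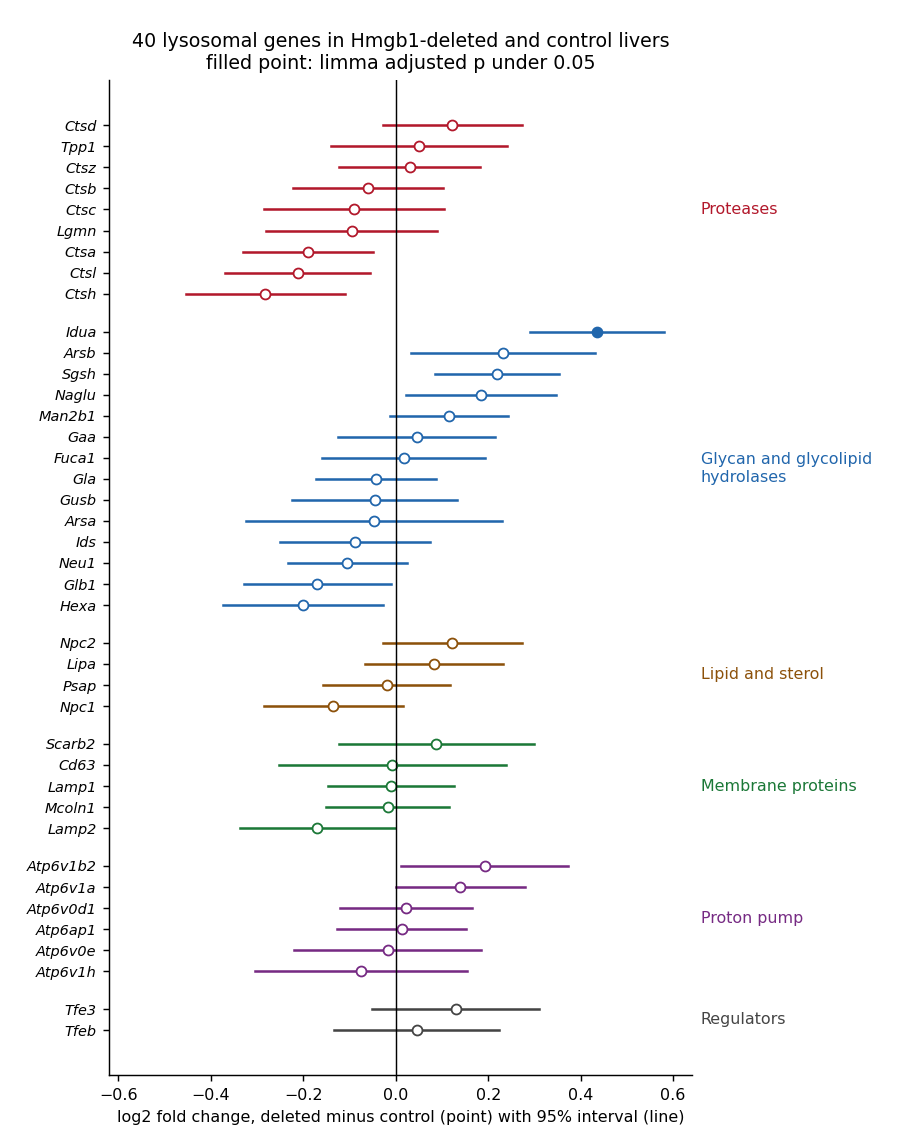
Log2 fold change (x axis, deleted minus control) of each of the 40 lysosomal genes, grouped by role, with the 95% interval of limma's fit as a line. The filled point, Idua at 0.435, is the 1 gene past an adjusted p of 0.05, and all intervals end inside 1.5-fold.

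Idua encodes alpha-L-iduronidase, which removes iduronic acid from the ends of heparan sulfate and dermatan sulfate. Its log2 intensity was 7.38, 7.53, 7.54 and 7.55 on controls 1 to 4 and 7.83, 8.01, 7.94 and 7.96 on deleted 1 to 4. All 4 deleted arrays lay above all 4 controls, and control 1 was the lowest. Idua rose by 0.435 (SE 0.066, 95% interval 0.29 to 0.58), a 1.35-fold difference with a limma adjusted p of 0.0166. Over 17 alternatives the log2 fold change stayed between 0.395 and 0.47. The call was lost with arrays centred on their medians (adjusted p = 0.0541) and without deleted 2 (0.0608), deleted 3 (0.0647), deleted 4 (0.0687) or control 4 (0.0614), and was held without control 1 (0.0118). Slc26a1, an anion transporter gene that overlaps Idua in RefSeq, had a log2 fold change of the other sign, −0.21 (SE 0.068, adjusted p = 0.288). Dgkq, a diacylglycerol kinase gene that overlaps it too, had 0.093 (SE 0.056, adjusted p = 0.743).

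The other glycan and glycolipid hydrolases were divided, with 6 of the 13 higher and 7 lower and 0 past the threshold (limma; 5 with an unadjusted p under 0.05). Sgsh, the sulfamidase that removes N-linked sulfate from heparan sulfate, read 7.42, 7.29, 7.33 and 7.26 on the controls and 7.59, 7.56, 7.56 and 7.47 on the deleted arrays. The groups did not overlap, and deleted 4 and control 1 lay closest to each other. Its log2 fold change was 0.22 (SE 0.061, adjusted p = 0.179), and it passed with array weights (adjusted p = 0.0254).

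Naglu encodes the alpha-N-acetylglucosaminidase of the same breakdown path. It read 8.49, 8.50, 8.46 and 8.54 on the controls against 8.50, 8.66, 8.81 and 8.76 on the deleted arrays, where deleted 1 alone lay among the controls. The difference was 0.185 (SE 0.074, adjusted p = 0.428). Arsb, the sulfatase of dermatan and chondroitin sulfate, read 8.72, 9.04, 9.04 and 8.99 on the controls and 9.01, 9.23, 9.31 and 9.17 on the deleted arrays, with deleted 1 again inside the control range. Its difference was 0.23 (SE 0.090, adjusted p = 0.411), and 0.185 when averaged with its dimmer probe set.

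Idua, Arsb, Sgsh and Naglu thus had 4 of the 5 largest positive differences of the 40 genes, with the pump gene Atp6v1b2 ahead of Naglu. All 4 act on sulfated glycosaminoglycans, a grouping made after their values were seen. Among the 40 genes, Ids and Gusb of the same breakdown path did not share the sign. Ids, the iduronate sulfatase, had −0.088 (SE 0.073), and Gusb, beta-glucuronidase, had −0.045 (SE 0.081). Enzymes of this path among the other lysosomal genes were not compared here. Man2b1, lysosomal alpha-mannosidase, had 0.115 (SE 0.058, adjusted p = 0.625), with controls at 10.26, 10.29, 10.34 and 10.37 and deleted arrays at 10.39, 10.50, 10.44 and 10.39.

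Hexa, the alpha subunit of beta-hexosaminidase, which cleaves the ganglioside GM2, read 8.99, 9.33, 9.21 and 9.21 on the controls and 8.95, 8.97, 8.93 and 9.09 on the deleted arrays. Only control 1 lay inside the deleted range. The difference was −0.20 (SE 0.079, adjusted p = 0.419). Glb1, lysosomal beta-galactosidase, read 7.96, 8.21, 8.20 and 8.22 on the controls and 7.91, 7.97, 8.02 and 8.01 on the deleted arrays, again with control 1 alone among the deleted values, and differed by −0.17 (SE 0.072, adjusted p = 0.475). Neu1, the sialidase that works in a complex with the Glb1 and Ctsa products, had −0.105 (SE 0.058). Gaa, acid alpha-glucosidase, Fuca1, alpha-fucosidase, Gla, alpha-galactosidase A, and Arsa, arylsulfatase A, had log2 fold changes from −0.048 to 0.045.

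**Figure D3:**
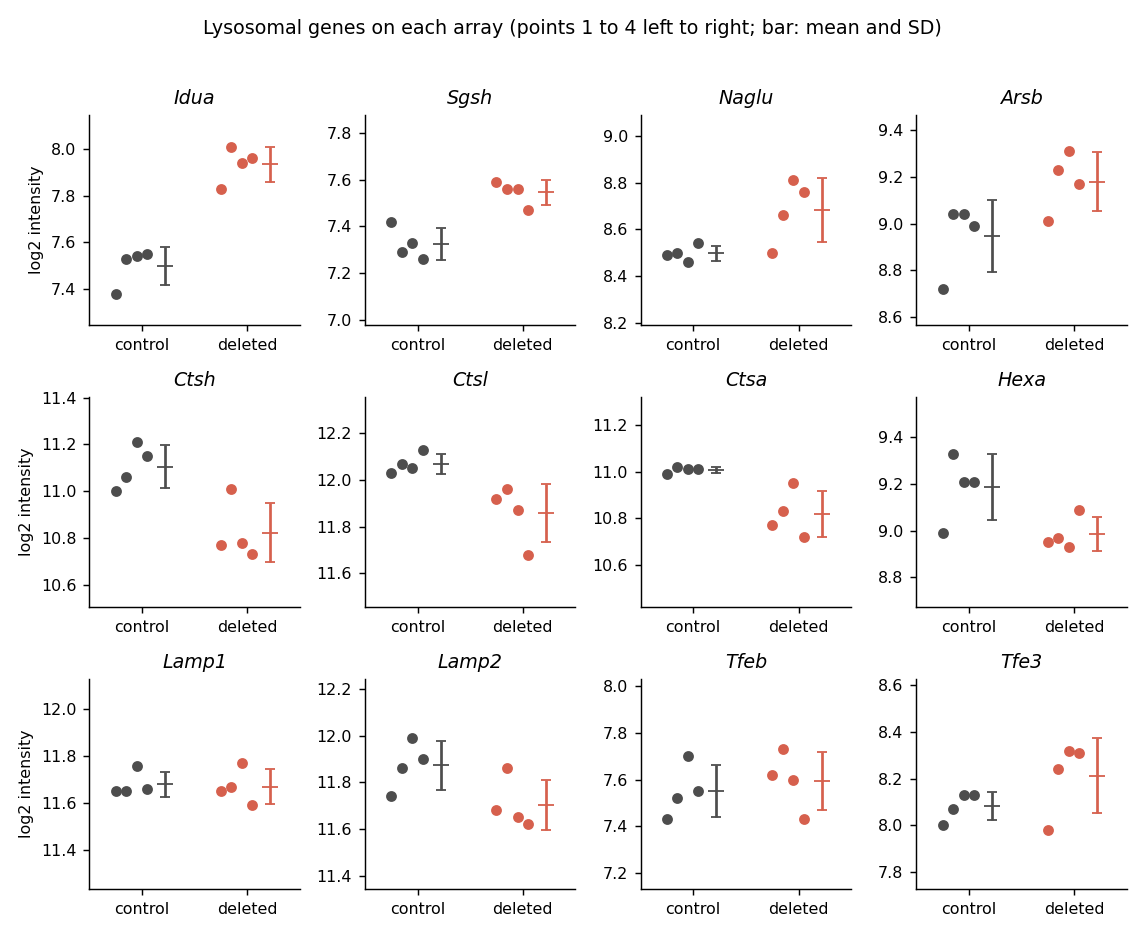
Log2 intensity of 12 lysosomal genes on each array, controls in grey and deleted livers in red, with the mean and SD of each group (n = 4) beside the points; each panel has its own y axis. For Idua the deleted arrays lie at 7.83 to 8.01 and the controls at 7.38 to 7.55, whereas the groups of Lamp1 overlap.

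Among the 9 proteases 6 were lower and 3 higher, with 0 past the threshold (limma; 3 with an unadjusted p under 0.05) and a median log2 fold change of −0.090, against 0.0 over all genes. The median was −0.051 after quantile normalization again, −0.050 with array weights, −0.038 without deleted 1, −0.058 without control 3 and −0.054 without control 4.

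Ctsh, an aminopeptidase of the papain family, read 11.00, 11.06, 11.21 and 11.15 on the controls and 10.77, 11.01, 10.78 and 10.73 on the deleted arrays. Deleted 2 alone reached the control range. Its log2 fold change of −0.28 (SE 0.078, adjusted p = 0.179) was the most negative of the 40 genes, and it ran from −0.345 to −0.23 over the alternatives without passing (lowest adjusted p 0.0619).

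Ctsl encodes cathepsin L, an endopeptidase of the same family. It read 12.03, 12.07, 12.05 and 12.13 on the controls and 11.92, 11.96, 11.87 and 11.68 on the deleted arrays, with no overlap and deleted 4 lowest. The difference was −0.21 (SE 0.071, adjusted p = 0.298), and −0.12 after quantile normalization again. Ctsa, the serine carboxypeptidase that protects Neu1 and Glb1 from breakdown, read 10.99, 11.02, 11.01 and 11.01 on the controls and 10.77, 10.83, 10.95 and 10.72 on the deleted arrays, without overlap. It differed by −0.19 (SE 0.064, adjusted p = 0.298).

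The other proteases differed by less than 0.13. Ctsd, the aspartic protease cathepsin D, read 11.09, 11.21, 11.27 and 11.23 on the controls and 11.25, 11.38, 11.42 and 11.24 on the deleted arrays, a difference of 0.12 (SE 0.068) with overlapping groups. Ctsb, cathepsin B, had −0.060, Ctsc, which activates serine proteases of immune cells, −0.090, Lgmn, an asparaginyl endopeptidase, −0.095, Ctsz 0.030 and Tpp1, a tripeptidyl peptidase, 0.050. The limma adjusted p-values of Ctsb, Ctsc, Lgmn, Ctsz and Tpp1 were 0.899 or higher, and that of Ctsd was 0.688.

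Of the markers of liver cell types, 1 of 62 measured passed the threshold, against 0.692% of all genes and 0 of the 9 proteases. For the directions that follow, 49.0% of all genes tested were higher in the deleted livers. All 12 measured sinusoidal endothelial markers were lower in the deleted livers, with a median of −0.21. Clec4g, a lectin gene of these cells, was the one that passed; it fell from 11.32, 11.21, 11.49 and 11.39 on the controls to 10.86, 10.75, 10.68 and 10.66 on the deleted arrays (adjusted p = 0.00628). The summed linear level of the 12 was 6824 to 7339 on the deleted and 8375 to 9256 on the control arrays, without overlap. Hepatocyte markers were lower for 9 of 10 (median −0.15, 0 past the threshold), with overlapping sums of 68670 to 94340 on the deleted and 92500 to 96010 on the control arrays. Deleted 4 held the lowest sum, and without it 7 of 10 were lower, the median was −0.030 and the deleted sums began at 89910. Macrophage markers were higher for 9 of 12 (median 0.049, 0 past the threshold), and their sums overlapped, at 7011 to 7753 and 7123 to 7990. Without control 2, 5 of 12 were higher and the median was −0.0067. With any other single array left out, 7 to 10 were higher. The 2 macrophage markers with an unadjusted limma p under 0.05, Vsig4 (−0.23) and Lyz2 (−0.35), were lower. Sums of stellate (6031 to 6833 and 6495 to 6944) and leukocyte markers (582 to 633 and 587 to 653) overlapped too, and those of cholangiocyte markers did not (379 to 423 deleted, 460 to 462 control; 3 of 6 lower). Without deleted 2 the stellate sums did not overlap, at 6031 to 6194 on the deleted and 6495 to 6944 on the control arrays. Then 9 of 11 stellate markers were lower, against 7 with all arrays and 5 without deleted 1. Without Sox9 the cholangiocyte sums overlapped, at 233 to 269 and 247 to 290. Of these, 11 of 12 macrophage, 3 of 11 leukocyte and 3 of 6 cholangiocyte markers had a mean above the median probe set. The part of these cells in the differences of lysosomal genes was not tested.

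The membrane proteins showed no gene past the threshold (0 of 5, limma; 1 with an unadjusted p under 0.05). Lamp1 read 11.65, 11.65, 11.76 and 11.66 on the controls and 11.65, 11.67, 11.77 and 11.59 on the deleted arrays. The difference was −0.010 (SE 0.062, 95% interval −0.15 to 0.13), and 0.058 after quantile normalization again. Lamp2, whose product is needed for lysosomes to fuse with autophagosomes, read 11.74, 11.86, 11.99 and 11.90 on the controls and 11.68, 11.86, 11.65 and 11.62 on the deleted arrays. Its difference was −0.17 (SE 0.076, adjusted p = 0.52), and deleted 2 alone reached the control range. It was −0.10 after quantile normalization again.

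Mcoln1, the calcium release channel of the lysosomal membrane, read 9.96, 9.91, 9.99 and 10.07 on the controls and 9.93, 9.98, 10.03 and 9.92 on the deleted arrays. It differed by −0.018 (SE 0.060, 95% interval −0.15 to 0.12). Scarb2, the sorting receptor of glucocerebrosidase, had 0.088 (SE 0.096) with controls spread from 9.67 to 10.17. The tetraspanin gene Cd63 had −0.0075 (SE 0.11) on a dim probe set, with values from 4.52 to 5.00, below every array's median.

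Of the lipid genes 2 were higher and 2 lower, with 0 of 4 past the threshold (limma; 0 with an unadjusted p under 0.05). Npc1 and Npc2, which hand cholesterol from the lumen to the membrane, differed in sign. Npc1 read 10.83, 10.85, 10.93 and 11.07 on the controls and 10.73, 10.81, 10.84 and 10.76 on the deleted arrays (−0.135, SE 0.068, adjusted p = 0.625). Npc2 read 8.38, 8.21, 8.40 and 8.43 and then 8.43, 8.42, 8.56 and 8.50 (0.12, SE 0.068, adjusted p = 0.685). The groups overlapped for each. Npc1 was −0.085 without control 4 and −0.083 after quantile normalization again, and Npc2 was 0.074 without control 2. Lipa, lysosomal acid lipase, had 0.083 (SE 0.068), and Psap, the precursor of the saposin activators, −0.020 (SE 0.062).

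Of the 6 proton pump genes 4 were higher and 0 passed the threshold (limma; 2 with an unadjusted p under 0.05), with a median of 0.018 that was −0.0087 without deleted 2 and −0.012 without control 1. Atp6v1b2, the B2 subunit of the cytosolic ATPase head, read 9.35, 9.67, 9.59 and 9.68 on the controls and 9.77, 9.87, 9.72 and 9.70 on the deleted arrays, without overlap but with deleted 4 only just above control 4. Its difference was 0.19 (SE 0.082, adjusted p = 0.478), and 0.12 without control 1. Slc18a1, a monoamine transporter gene that overlaps Atp6v1b2 in RefSeq, rose by 0.74 (SE 0.086, adjusted p = 0.0054), from 6.05, 5.91, 5.72 and 5.77 to 6.57, 6.70, 6.68 and 6.46, and whether either probe set reads the other gene was not tested.

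Atp6v1a, the catalytic A subunit, read 9.11, 9.24, 9.21 and 9.26 and then 9.24, 9.35, 9.40 and 9.39, a difference of 0.14 (SE 0.063, adjusted p = 0.526) with deleted 1 inside the control range. Atp6v0d1 and Atp6v0e of the membrane sector, the accessory Atp6ap1 and the regulatory Atp6v1h had values from −0.075 to 0.023.

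Both regulators overlapped between groups. Tfeb read 7.43, 7.52, 7.70 and 7.55 on the controls and 7.62, 7.73, 7.60 and 7.43 on the deleted arrays, a difference of 0.045 (SE 0.081, 95% interval −0.13 to 0.22, adjusted p = 0.973) that was 0 without deleted 2, 0.0050 without control 1, 0.10 without deleted 4 and 0.095 without control 3. Tfe3 read 8.00, 8.07, 8.13 and 8.13 on the controls and 7.98, 8.24, 8.32 and 8.31 on the deleted arrays. Deleted 1 was the lowest of all 8 and the other 3 deleted arrays were the highest, and the difference was 0.13 (SE 0.082, 95% interval −0.051 to 0.31, adjusted p = 0.764). Without deleted 1 it was 0.21 (adjusted p = 0.247). These are transcript levels; the activity of both factors is set largely by where the protein sits in the cell, which arrays do not read.

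The differences spanned 0 both with and without the E-box core. The 15 genes that held CACGTG had a median log2 fold change of −0.018 (6 higher, 9 lower), from −0.21 for Ctsl to 0.22 for Sgsh. The 20 genes with an entry and no match had a median of 0.024 (12 higher, 8 lower), from −0.20 for Hexa to 0.435 for Idua. These medians are descriptions without a test.

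The arrays within each group also differed from one another. Control 1 held the lowest of the 4 control values for 30 of the 40 genes, and the lowest of all 8 arrays for 13. Over all genes it was the lowest control for 35.7%. The median deviation of the 40 genes from their means over 8 arrays was −0.094 on control 1, −0.064 on deleted 1, −0.013 on deleted 4, −0.0037 on control 2, 0.011 on control 4, 0.046 on deleted 3, 0.063 on control 3 and 0.068 on deleted 2, so deleted and control arrays were mixed along this range. Without control 1, 13 of the 40 genes were higher in the deleted livers in place of 19, with a median log2 fold change of −0.020, while 54.6% of all genes were higher.

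**Figure D4:**
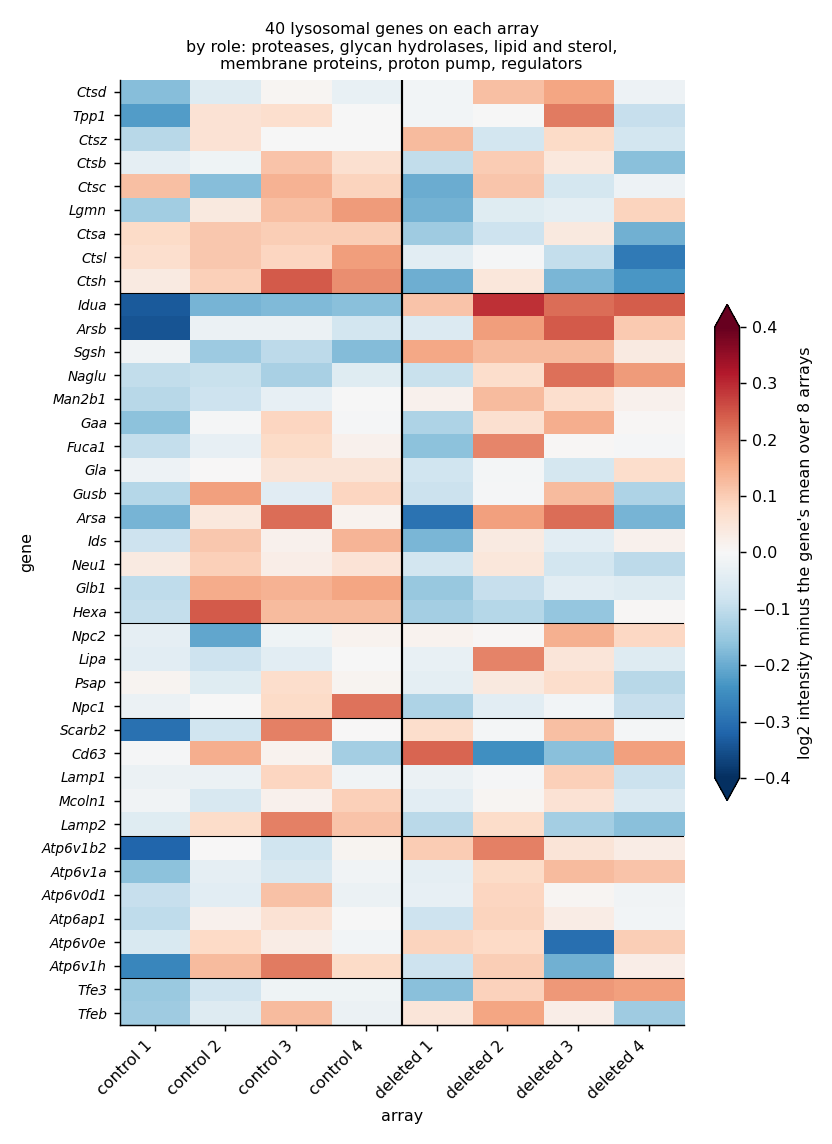
Log2 intensity of each of the 40 lysosomal genes minus its mean over the 8 arrays (colour scale, clipped at 0.4 in either direction), with genes in rows by role and arrays in columns, controls left of the line. Control 1 is the bluest column, lowest of the controls for 30 of 40 genes, and the row of Idua changes colour at the line.

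The rest of the pathway was read from lists of 107 other lysosomal genes, of which 98 were measured. Of these, 4 passed the threshold (3 higher, 1 lower), against 0.692% of all genes. Of the 98 genes 56 were higher, 41 lower and 1 equal (57.1% higher, against 49.0% of all genes). The median log2 fold change was 0.019, against 0.0 for all genes. An unadjusted limma p under 0.05 was found for 27 of the 98 (17 higher, 10 lower), against 9.46% of all genes. The groups did not overlap for 21 (14 higher, 7 lower), against 5.57% of all genes (3.28% higher, 2.30% lower). Of the 98 genes 91 had a mean above the median probe set, as did 11610 of all 19938 genes. With dim genes left out, 13.0% of the genes kept had an unadjusted p under 0.05, and 8.11% had no overlap. The unadjusted and no-overlap counts of the 98 were not repeated under the alternatives. By role, the hydrolases had 1 higher and 1 lower of 24 past the threshold (9 with an unadjusted p under 0.05). The membrane proteins and transporters had 0 of 24 (7 unadjusted) and the pump 1 higher of 14 (2 unadjusted). Enzyme sorting had 1 higher of 14 (3 unadjusted) and the regulators 0 of 22 (6 unadjusted).

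Gga2 encodes an adaptor that carries hydrolases bound to mannose 6-phosphate receptors from the Golgi towards lysosomes. It read 7.53, 7.64, 7.68 and 7.76 on the controls and 8.15, 8.24, 8.41 and 8.29 on the deleted arrays, with a wide gap between the groups. It rose by 0.62 (SE 0.075, adjusted p = 0.00628), 1.54-fold, and passed in all 17 alternatives. Sort1, the sorting receptor sortilin, had 0.37 (SE 0.13, adjusted p = 0.309), with control 1 at 7.39 against 7.93 to 8.04 on the other controls, and 0.23 without it.

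Asah1, acid ceramidase, which is activated by a Psap product, read 8.40, 8.51, 8.70 and 8.58 on the controls and 7.58, 7.60, 8.01 and 7.67 on the deleted arrays. It fell by 0.83 (SE 0.10, adjusted p = 0.00628), 1.78-fold, and passed in all 17 alternatives, while Psap itself differed by −0.020. Acp5, the tartrate-resistant acid phosphatase of macrophages and osteoclasts, read 10.45, 10.59, 10.59 and 10.56 on the controls and 10.86, 10.90, 10.98 and 10.83 on the deleted arrays. Its rise of 0.345 (SE 0.062, adjusted p = 0.0367) held in 8 of 17 alternatives, with an adjusted p of up to 0.143 (without control 4). It was also lost without each of the other arrays except control 1.

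Atp6v0a1, the a1 subunit of the pump's membrane sector, read 9.69, 9.83, 9.81 and 9.79 on the controls and 10.00, 10.16, 10.27 and 10.16 on the deleted arrays. It rose by 0.37 (SE 0.070, adjusted p = 0.0457), a call held in 9 of 17 alternatives and lost without any 1 of deleted 2 to 4 or controls 2 to 4 (adjusted p of up to 0.173). Atp6v0d2, an isoform of the d subunit found in osteoclasts and macrophages, had the largest difference of the pathway, 1.61 (SE 0.32), or 3.06-fold, just short of the threshold (adjusted p = 0.0557). It read 7.46, 6.04, 6.19 and 7.11 on the controls and 7.89, 9.0, 8.01 and 8.35 on the deleted arrays, so the groups did not overlap but each spread widely. It passed in 5 of 17 alternatives, among them the one without control 1 (adjusted p = 0.0107). The d1 isoform Atp6v0d1, described above, had 0.023.

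Fnip1 and Flcn encode partners in the folliculin complex, which acts on Rag GTPases and through them on whether TFEB and TFE3 stay in the cytosol. Fnip1 read 8.55, 8.87, 8.78 and 8.84 on the controls and 8.09, 8.44, 8.41 and 8.35 on the deleted arrays (−0.44, SE 0.095, adjusted p = 0.0827). Flcn read 8.48, 8.47, 8.47 and 8.56 on the controls and 7.89, 8.18, 8.36 and 8.07 on the deleted arrays (−0.37, SE 0.091, adjusted p = 0.124). All 4 deleted arrays lay below all controls for each gene, and neither passed. Over the alternatives, Fnip1 passed in 4 of 17 and Flcn in 1 of 17. Cln3, a membrane protein of Batten disease, had −0.245 (SE 0.066, adjusted p = 0.167), and Clcn7, the chloride-proton exchanger, had 0.195 (SE 0.059, adjusted p = 0.23), without overlap between groups for either.

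**Figure D5:**
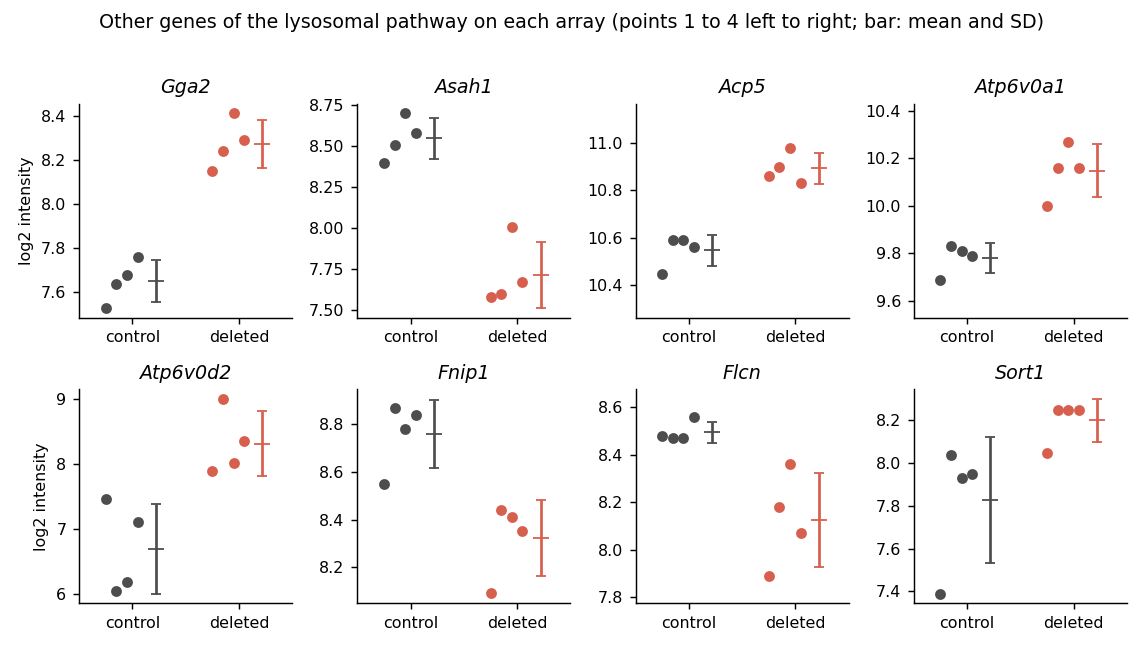
Log2 intensity of 8 other genes of the lysosomal pathway on each array, controls in grey and deleted livers in red, with the mean and SD of each group (n = 4) beside the points; each panel has its own y axis. Gga2, Acp5 and Atp6v0a1 rose and Asah1 fell past the threshold, and Atp6v0d2 spreads from 6.04 to 7.46 on the controls and from 7.89 to 9.0 on the deleted arrays.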

How the data were processed

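RNA of 8 liver samples (4 Hmgb1 deleted, 4 floxed control) was measured on arrays from 150 ng of RNA each. The authors processed them with RMA (background correction, normalization across arrays, summary of probes to probe sets), as the submitters' processing notes name it, and deposited log2 intensities with 2 decimals. No version or genome build is given in those notes. Of 35556 probe sets, GEO's annotation gives 1 symbol to 21789, several to 1621 and none to 12146; the last 2 kinds were left out. Each gene took its brightest probe set; of the 40 lysosomal genes only Arsb had more than 1. No filter on dim genes was applied.

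Groups were compared with limma 3.58.1 in R 4.3.3 (lmFit, eBayes, 2-sided, no covariate) over all 19938 genes, with Benjamini-Hochberg adjustment and a threshold of 0.05. Intervals are those of the moderated fit for single genes. The members and lists were chosen with earlier results of these data known, Asah1 among them, so no list was tested. The rule for named genes asked for values on every array of genes past the threshold, the 15 lysosomal genes with the smallest p, and Lamp1, Lamp2, Mcoln1, Tfeb and Tfe3. Of the other lists, genes past the threshold and the 2 with the smallest p in each were named. Scripts were tested on simulated data. Alternatives were leaving out dim genes, testing probe sets singly or averaging them per gene, quantile normalization again, median centring, a variance trend, a robust prior, array weights, a replicate block, and leaving out each array in turn. Counting unadjusted p-values, and shares over all genes, under each was added after seeing the data, as were marker lists without single arrays or Sox9. The strand that the probes read is not stated in the labels, and 9 of the 40 genes overlap another tested gene in RefSeq. Figures used Python 3.11.15 and matplotlib 3.10.9. The number of arrays limits the precision.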

Additional observations from a re-analysis of the deposited data

Results flagged for a closer look

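In 100 groups of 4 values (the 40 lysosomal genes and the 10 other genes named), 9 held an array whose gap to its nearest neighbour, divided by the group's range, was above Dixon's critical value for 4 samples, which chance exceeds in about 1 in 20 groups, here 5. Floxed control 1 accounted for 4 of the 9: on it, Idua read 7.38 against 7.53 to 7.55 on the other controls, Arsb 8.72 against 8.99 to 9.04, Glb1 7.96 against 8.20 to 8.22 and Sort1 7.39 against 7.93 to 8.04. Ctsc read 10.37 on control 2 against 10.63 to 10.68. Lamp1 read 11.76 on control 3 against 11.65 to 11.66. Flcn read 8.56 on control 4 against 8.47 to 8.48. Among the deleted arrays, Atp6v0e read 9.21 on deleted 3 against 9.59 to 9.61, and Sort1 read 8.05 on deleted 1 against 8.25 on each of the others. No cause was tested for any of them.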

How the results depend on the processing

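The count of lysosomal genes past the threshold was 1 in 11 of 17 alternatives. It was 0 with arrays centred on their medians and 2 (Idua and Sgsh) with array weights, and ran from 0 to 1 with 1 array left out. The count over all genes (138) was 57 with all probe sets, 264 after quantile normalization again, 61 with centred arrays and 526 with array weights, and 37 to 321 with 1 array left out. Of the other lysosomal genes (4), 2 passed with all probe sets, 8 after quantile normalization again, 2 with centred arrays, 11 with array weights and 2 to 7 with 1 array left out. The 6 lysosomal genes without overlap (5.57% of all genes) became 10 after quantile normalization again (8.50%), 3 with centred arrays (4.87%) and 6 to 10 with 1 array left out (7.0% to 13.3%), where overlap is rarer by construction. The median of the glycan hydrolases ran from −0.046 to 0.059 with 1 array left out. The medians of the lysosomal genes, the pump genes and the proteases moved by less than the spread between arrays in each of the 17 alternatives. Alternatives were run for 30 genes (19 lysosomal, 10 other, and Hmgb1), and 28 of them kept their sign or lay at 0. Centring added 0.02 to every gene. Lamp1 turned to 0.058 (quantile normalization again), 0.010 (centred arrays) and 0.017 (without deleted 4 or control 3; range −0.043 to 0.017 with 1 array left out), and Mcoln1 to 0.0025 (centred arrays) and 0.012 (without control 4; range −0.042 to 0.012). Apart from the centring, the cause was not tested.

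With the replicate number as a block, 325 of all genes passed, and 1 of the 40 lysosomal genes, Idua (adjusted p = 0.0105); Fnip1 passed as well (0.0105, against 0.0827 without the block). Deviations of same-numbered arrays correlated at 0.447, 0.065, −0.081 and 0.42. Deleted 1 and 4 correlated best with the control of their own number, and deleted 2 and 3 with another. Whether the numbers pair the arrays cannot be told from these values.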
